A study of Mus musculus with 5 samples.

Results

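The genes described here encode splicing factors and hnRNPs, the proteins that bind pre-mRNA and assemble the spliceosome. Members were taken by gene name, as every name in the deposited expression table that starts with Srsf, Sfrs, Sf3a, Sf3b, Snrp, Hnrnp, Hnrp or Prpf. This gave 76 names among 22897 named genes, with 1 row kept per name, the one with the highest mean of both libraries. Older and current names coexist in the table, and 5 names are a second name of a gene already among the members, so the 76 names stand for 71 RefSeq genes. The mice were 3 months old, and all material was whole testis. Polyadenylated RNA was sequenced from wild-type males and from Taf7l-/Y males, which lack the X-linked gene for TAF7L, a germ-cell relative of the TFIID subunit TAF7. Each genotype gave 1 library, made from equal amounts of RNA of 6 animals. Chromatin was precipitated with antibodies to TAF7L or to RNA polymerase II (Pol II) or with mixed mouse and rabbit IgG, in 1 library each. These 3 libraries are labelled wild type, although their shared protocol names chromatin of both genotypes, and the IgG library has no column in the tables used here. With a single library for each genotype and antibody there is no replicate check, and only sizes of differences are given.

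Splicing starts when U1 snRNP pairs with the donor site and U2 snRNP, through SF3A and SF3B, settles on the branch point. The U4/U6.U5 tri-snRNP then joins, and PRP factors drive the rearrangements that lead to catalysis. SR proteins bind exonic enhancers and recruit these particles, whereas hnRNPs coat introns and often oppose or modulate exon inclusion. Testis is a tissue with unusually extensive alternative splicing, and its meiotic and postmeiotic germ cells use their own sets of isoforms.

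For Taf7l itself the signal was 13.2 in the wild-type library and 2.04 in the library labelled knockout. The signal has no named unit. It was read as RPKM-like, per length and depth, which is not stated, and comparisons of level between genes rest on that reading. Throughout, the first of 2 signals is that of the wild-type library and the second that of the knockout library. Change means log2((knockout + 1)/(wild type + 1)), a scale on which low genes are compressed. It was computed for the 13127 genes whose mean signal reached 1. Their median change was 0.40, so the members are also given relative to it. Markers of testis cell types moved with genotype. All 8 late spermatid markers were at least 2-fold lower in the knockout library (sums 67071 and 12013). Of 7 round spermatid markers 5 were at least 2-fold lower (sums 1280 and 544). Of 8 spermatocyte markers 2 were at least 2-fold higher (sums 694 and 865), as were 4 of 8 Sertoli cell markers (690 and 1451). So were 2 of 5 tested spermatogonium, 3 of 4 peritubular and 1 of 4 tested macrophage and leukocyte markers. Leydig cell markers were mixed, with sums of 1894 and 1526. Of these, 3 of 6 were at least 2-fold higher, while Insl3 (1686 and 1052) and Star (23.5 and 11.7) were lower. Over all genes tested, 7.15% were at least 2-fold higher and 7.08% lower. Of 5 epididymal markers, Crisp1 (0.042 and 75.9), Defb2 (0 and 23.7) and Adam7 (0.001 and 3.13) were higher in the knockout library, Cst8 was lower (221.7 and 87.7) and Lcn5 was near 0 in both (0 and 0.058), with sums of 222 and 191. The part of these shifts in the changes below was not tested, and in whole tissue fewer cells of a type and less RNA per cell cannot be told apart.

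Nearly all splicing factor and hnRNP transcripts stood higher in the knockout library, by a moderate amount. Of the 75 members that reached a mean of 1, 71 had a change above 0, against 72.7% of all genes tested, and 4 were lower. The median change was 0.61, or 0.20 relative to all genes, with an interquartile range of 0.41 to 0.83 and extremes of -0.34 and 1.41. In all, 58 of 75 members lay above the median change of all genes. At least 2-fold higher were 6 members, 8.00%, close to the 7.15% of all genes, and no member was at least 2-fold lower, against 7.08% of all genes. At least 1.5-fold higher were 42 members, 56.0%, against 35.3% of all genes, and none was at least 1.5-fold lower, against 12.8%. Just past the 2-fold line were Snrpe with 1.03 and Prpf8 with 1.04, and just under it Snrpb with 0.98 and Srsf3 with 0.97. The only name under the mean of 1 was Srsf13b, with 0.43 and 0.35.

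The tables give a standard deviation for each library, and what it was taken over is not stated. With 1 library per genotype it was read as a technical spread within the library, not one between animals. For 64 members the knockout mean minus this deviation lay above the wild-type mean plus it, against 49.5% of all genes. Snrpd2, Sf3b4 and Sfrs16 were separated in the other direction, against 16.9% of all genes. Among the members not separated were Hnrnph2, Prpf38b, Prpf39, Sf3b3, Sfrs12ip1, Snrpn and Srsf15. As a share of the signal of all named genes, the tested members together made up 0.53% of the wild-type and 0.82% of the knockout library.

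**Figure D1:**
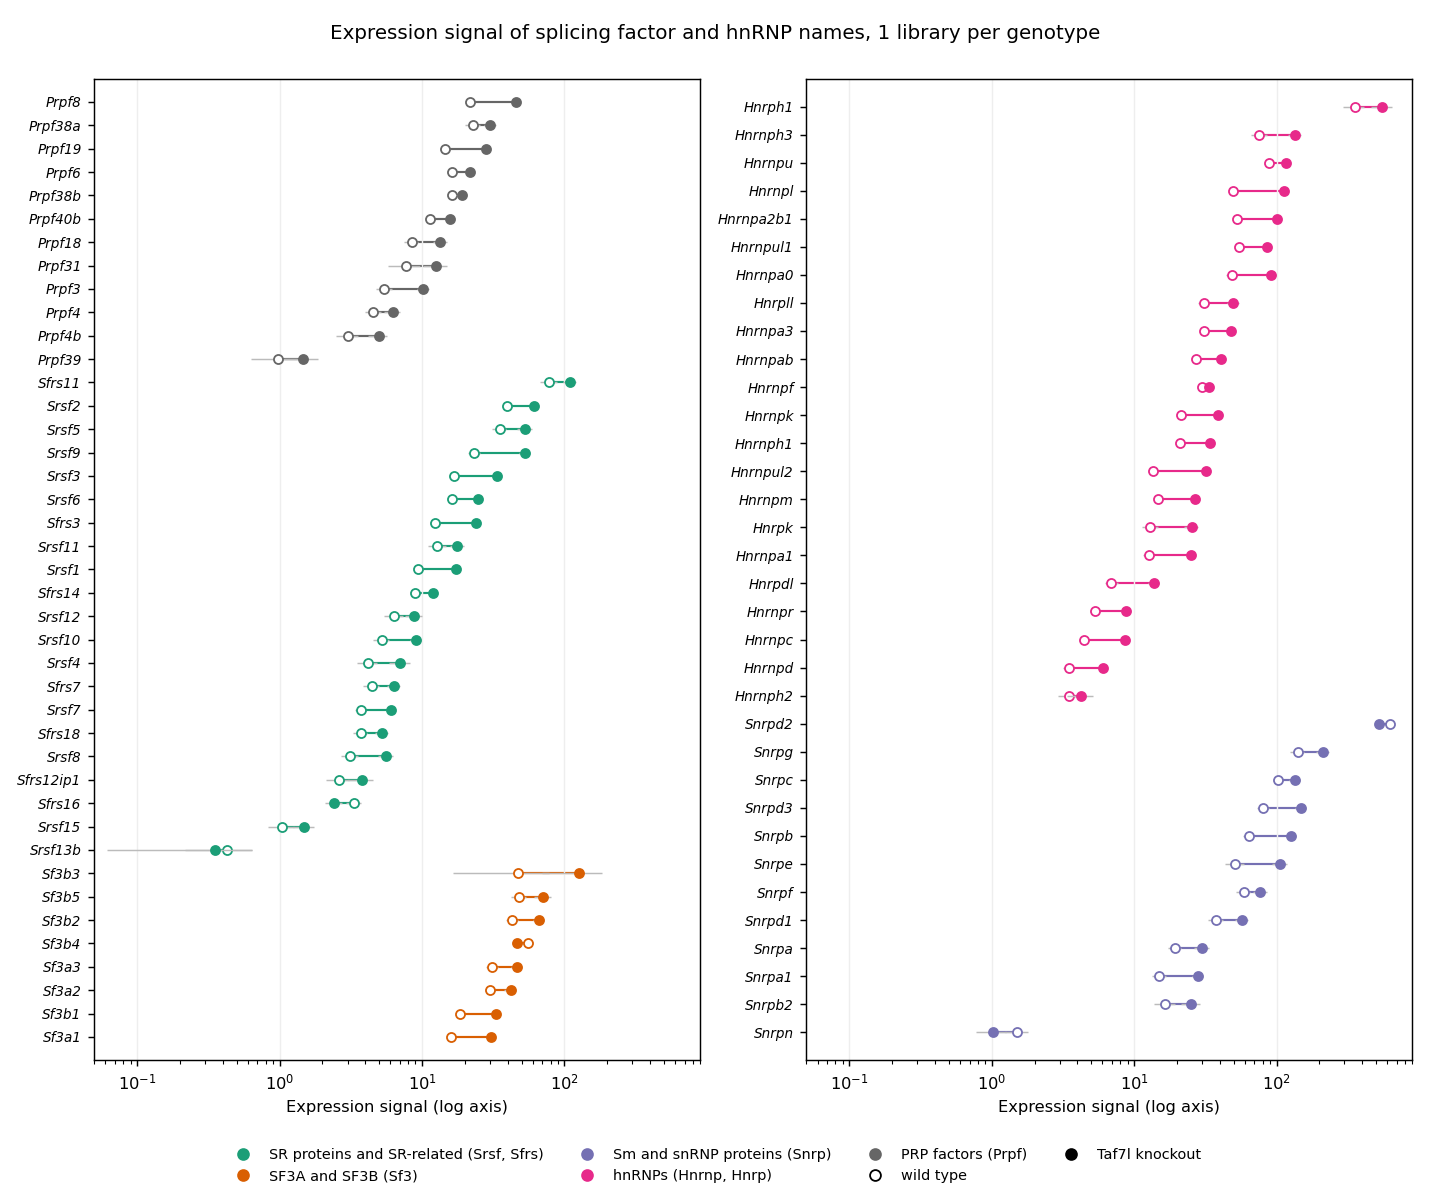
Expression signal (log axis) of the member names described here in the wild-type library (open circles) and the Taf7l knockout library (filled circles), coloured by family, with 1 library per genotype. Grey bars are the standard deviation within each library. Filled circles lie to the right of the open ones except for Snrpd2, Sf3b4, Sfrs16, Snrpn and Srsf13b.

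SR proteins carry a domain rich in arginine and serine and select exons. Of 20 tested names of this family 1 was past 2-fold and 8 past 1.5-fold in the higher direction, none past 1.5-fold in the lower, with a median change of 0.58. These shares, 5.00% and 40.0%, were near the 7.15% and 35.3% of all genes. Srsf9, which encodes one of the smaller SR proteins, rose from 23.1 (SD within the library 2.24) to 52.5 (SD 4.54), a change of 1.15. Srsf3, whose protein also works in mRNA export, had 16.8 and 33.9, a change of 0.97 that lay just under 2-fold. The general splicing factor gene Srsf1 had 9.45 and 17.4, a change of 0.81. Srsf2, which encodes the nuclear speckle protein SC35, had 39.8 and 61.2, a change of 0.61. All of these were higher in the knockout library, and they spanned changes from 0.61 to 1.15.

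The most abundant SR name was Sfrs11, with 77.6 and 109.6, but its row covers only 560 bp inside the Srsf11 gene. The row kept for Srsf11 itself had 12.8 and 17.7. Srsf5 followed Srsf2 in abundance, with 35.04 and 52.9, but this row covers only 1346 bp. The Srsf5 row with the longest span, 5005 bp, had 19.3 and 25.8, a change of 0.40. Srsf6 had 16.3 and 24.9, Srsf4 had 4.19 and 7.02, and the pair of rows named Srsf7 and Sfrs7 had 3.70 and 6.02, and 4.44 and 6.32. Srsf10, whose protein represses splicing when it is dephosphorylated, had 5.20 and 9.09. Its close relative, listed as Srsf13b and known in RefSeq as Srsf12, was the untested name given above. The SR-related gene Sfrs16, RefSeq symbol Clasrp, encodes a protein that binds the kinase CLK4. Sfrs16 was the only tested SR name with a lower signal, at 3.34 and 2.41, a change of -0.34. The smallest positive changes in the family were those of Srsf15 (RefSeq Scaf4), which encodes a protein that binds the Pol II tail, with 1.04 and 1.495, and of Sfrs14 (Sugp2), with 8.94 and 11.9. The name Srsf12 in this table is RefSeq Srek1, on chromosome 13, with 6.38 and 8.80. Likewise, Srsf8 is RefSeq Sfswap, with 3.13 and 5.59, Sfrs18 is Pnisr, with 3.71 and 5.24, and Sfrs12ip1 is Srek1ip1, with 2.60 and 3.79. Sfrs16, Sfrs14, Srsf15, Srsf8 and Sfrs12ip1 overlap rows listed under their RefSeq symbols, which the member rule leaves out. Their values therefore describe the older-name rows only.

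SF3A and SF3B are the U2 snRNP complexes that hold the branch point. Of their 8 genes, 7 were higher, 87.5% against 72.7% of all genes, and Sf3b4 was lower. The family median was 0.58, and 4 genes were at least 1.5-fold higher, 50% against 35.3% of all genes. Sf3b3 had the largest change of all members, 1.41, with 47.1 and 126, but this row covers only 2279 bp at 1 end of the gene and its standard deviations within the libraries were 30.7 and 56.5. The Sf3b3 row with the longest span, 36313 bp, had 12.0 (SD 0.82) and 26.8 (SD 2.45), a change of 1.10. Both rows place Sf3b3 past 2-fold, and the second does so with a small spread within the library. Another gene, Cog4, overlaps the shorter row, and so also the longer row that contains it.

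The SF3 gene for the HEAT-repeat scaffold that cradles the branch helix, Sf3b1, had 18.4 and 32.9, a change of 0.81. Sf3a1 had 16.1 and 30.3, a change of 0.87. Sf3a2 and Sf3a3, which encode the zinc-finger subunits of SF3A, had 29.9 and 41.9, and 31.2 and 46.1. Sf3b2 had 43.1 and 66.0, and Sf3b5, for a small subunit, 47.8 and 71.1. Sf3b4, which encodes an RNA-binding subunit beside the branch point, was the most abundant in the wild type with 55.3 (SD 4.54) and had 46.6 (SD 3.80) in the knockout, a change of -0.24. Its change was thus of opposite sign to those of the other subunits, a difference that could not be tested.

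Sm proteins form the 7-membered ring around the small nuclear RNAs, and the other Snrp genes encode proteins particular to U1 or U2. Of 12 Snrp genes, 10 were higher, 83.3% against 72.7% of all genes, and 7 were at least 1.5-fold higher, 58.3% against 35.3%. Their median change was 0.59. Snrpe, for Sm protein E, rose from 51.1 (SD 7.78) to 105 (SD 12.7), a change of 1.03. Snrpb had 63.6 and 127, a change of 0.98, just under 2-fold. Snrpd3 had 81.0 and 148, Snrpg 141 and 212, Snrpf 58.9 and 76.9, and Snrpd1 37.5 and 56.9. These 6 genes of the ring were all higher in the knockout library, with changes from 0.38 to 1.03.

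Snrpd2, the remaining gene of the ring, stood apart in both level and direction. Its signal was 624 (SD 33.5) in the wild type, at percentile 99.3 of all genes tested, and 521 (SD 32.6) in the knockout, a change of -0.26. The wild-type signal was 10.2 times the median of the other 6 ring genes and 4.43 times the highest of them, although the proteins enter the ring in equal numbers. In the knockout these ratios were 4.49 and 2.45. No other name overlapped its row (chromosome 7, 19735186 to 19738075, mm9).

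Among the U1 and U2 proteins, Snrpc, needed for donor site recognition, had 102 and 134. Snrpa, which binds a stem-loop of U1 RNA, had 19.4 and 30.1. The U2 genes Snrpa1 and Snrpb2 had 15.02 and 28.0, and 16.6 and 25.2. Snrpn, an imprinted paralogue of Snrpb best known from brain, had a low signal of 1.51 and 1.02. It shares its transcripts with Snurf, so the reads of the pair cannot be separated.

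All 22 tested hnRNP names were higher in the knockout library, against 72.7% of all genes. At least 1.5-fold higher were 18, 81.8% against 35.3% of all genes, and at least 2-fold higher were 2, 9.09%, near the 7.15% of all genes. The family median was 0.76, or 0.35 relative to all genes. Hnrnpl, whose protein binds CA-rich repeats and represses exons, rose from 49.1 (SD 3.05) to 113 (SD 6.10), a change of 1.18. Hnrnpul2, a relative of hnRNP U, rose from 13.5 (SD 0.94) to 31.8 (SD 1.56), also a change of 1.18. Hnrnpa2b1 had 52.6 and 101.1, a change of 0.93. Hnrnpa1, the best-studied splicing repressor of the family, had 12.7 and 24.9, a change of 0.92. For all 4 genes the knockout mean less its standard deviation lay above the wild-type mean plus its own.

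At the other end of the family, Hnrnpf, for a protein that binds G-rich stretches, had 29.8 (SD 0.96) and 33.7 (SD 1.16), a change of 0.18. X-linked Hnrnph2, its relative, had 3.48 (SD 0.56) and 4.26 (SD 0.89), a change of 0.23. Hnrnph2 is the only member on the X chromosome and starts 124795 bp from the end of the targeted gene Taf7l (mm9). Hnrnpu, for the scaffold attachment protein, was abundant, with 88.4 and 116, a change of 0.39. Other genes of the F and H group had larger changes. Hnrnph3 had 75.8 and 135, a change of 0.82, and Hnrnph1 20.9 and 34.2, a change of 0.69. The Hnrnph3 row with the longest span had a lower signal, 20.1 and 34.6, and a change of 0.76. The highest hnRNP signal belonged to the name Hnrph1, with 354 and 553, a 1058 bp row inside Hnrnph1. Hnrnpk had 21.4 and 39.1, Hnrnpm 14.7 and 26.7, and Hnrnpc, for a protein that packages nascent transcripts, 4.44 and 8.65. Hnrnpa0 had 48.3 and 91.6, Hnrnpa3 30.9 and 48.0, and Hnrnpab 27.0 and 40.7. Hnrnpul1 had 54.6 and 86.2, Hnrpll, the paralogue of Hnrnpl, 30.7 and 49.6, and Hnrpdl 6.94 and 13.7. Signals were lower for Hnrnpd, which encodes AUF1, with 3.465 and 6.08, and Hnrnpr with 5.34 and 8.77.

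PRP factors had the smallest family median, 0.44, which is 0.04 relative to all genes. All 13 names were higher in the knockout library, against 72.7% of all genes, and 5 were at least 1.5-fold higher, 38.5%, near the 35.3% of all genes. Prpf8, for the protein at the heart of the spliceosome's active site, rose from 21.8 (SD 1.14) to 45.9 (SD 1.66), a change of 1.04. Prpf19, for a ubiquitin ligase that activates the spliceosome, had 14.4 and 28.2, a change of 0.92. Prpf3, a U4/U6 protein gene, had 5.44 and 10.2, a change of 0.80. Its partner gene Prpf4 had 4.55 and 6.21, a change of 0.38. Other tri-snRNP genes were Prpf6, with 16.2 and 21.6, and Prpf31, with 7.76 and 12.6. Prpf31 was read from a 1438 bp row.

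Among the other PRP names, Prpf38b had 16.3 and 19.0, and Prpf38a 22.8 and 30.0. Prpf40b had 11.4 and 15.8. Prpf39, a U1-associated factor gene, was near the required mean of 1, with 0.97 and 1.47. Prpf18, for a factor of the second catalytic step, had 8.46 and 13.4, and the kinase gene Prpf4b had 3.02 and 4.96. Within the family the change therefore ran from 0.21 for Prpf38b to 1.04 for Prpf8.

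**Figure D2:**
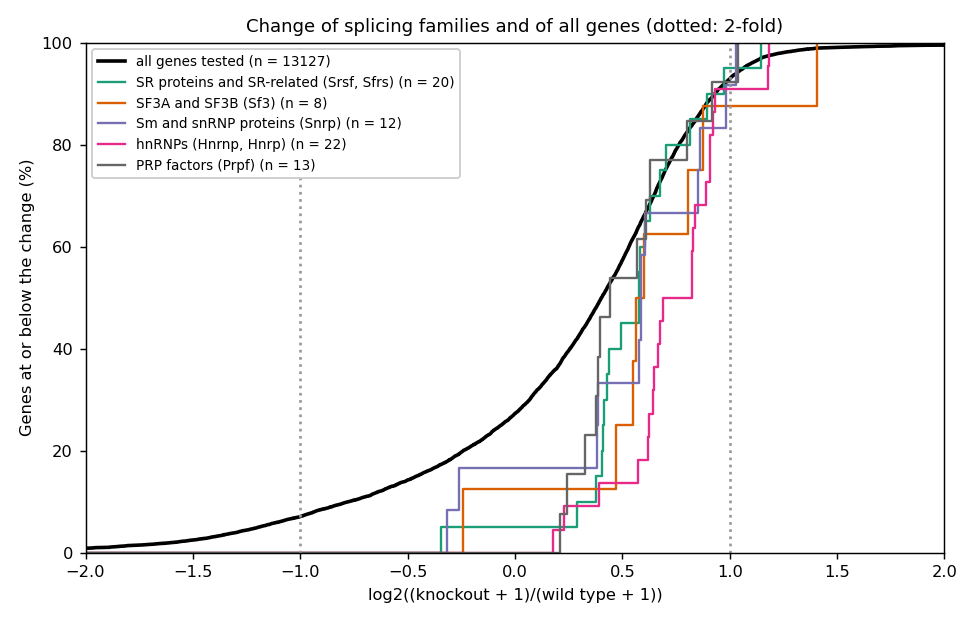
Cumulative share of genes (vertical axis, %) by log2 change of knockout against wild type (horizontal axis) for all 13127 genes tested and for the 5 member families. The hnRNP curve starts at 0.18 and lies to the right, with a median of 0.76 against 0.40 for all genes, while no family reaches the left 2-fold line.

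The scaling of the libraries decides whether any member passes 2-fold. When the knockout library was rescaled to a median change of 0, no member was at least 2-fold higher (1.01% of all genes) or 2-fold lower (12.4% of all genes). The median of the members was then 0.15, and 19 of the 75 were below 0. At least 1.5-fold higher after rescaling were 4 members, 5.33%, against 6.25% of all genes. At least 1.5-fold lower were Snrpd2, Sf3b4 and Sfrs16, 4.00%, against 21.9% of all genes. Snrpd2 had the lowest rescaled value of all members, -0.75, followed by Sf3b4 with -0.72.

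Different rows of a gene gave the same direction. The 76 names have 200 rows, and 50 names have at least 2 rows with a mean of at least 1. Their changes differed by a median of 0.08 between the lowest and highest row, and no name had rows of opposite sign. The range exceeded 0.3 only for Sf3b3 and Hnrnpa1. The Hnrnpa1 name also covers a row on chromosome X, with 7.81 and 14.7, and one on chromosome 13, with 2.41 and 3.72, so that reads of near-identical copies cannot be separated. For Prpf8, 2 rows that cover only the first part of the gene had 10.7 and 26.9, and 10.4 and 26.5, changes of 1.25 and 1.27 against 1.04 for the whole gene.

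The rest of the splicing machinery was described with a list of 126 other genes, of which 120 were measured under the listed names and 110 reached a mean of 1. It had a median change of 0.60, nearly that of the members. Above 0 were 102 of the 110 genes, against 72.7% of all genes tested. At least 2-fold higher were 9 genes, against 7.15% of all genes, and 1 was at least 2-fold lower, against 7.08%. The increases were led by Lsm5, of the Sm-like ring of U6, with 5.35 and 14.7, by the export adaptor gene Thoc4 with 40.6 and 99.7, and by the hnRNP-like gene Raly with 9.39 and 23.4. Lsm7 had 39.2 and 87.7, and Lsm3 35.1 and 77.2. Both subunits of U2AF, which reads the acceptor site, were past 2-fold, with U2af1 at 20.2 and 42.8 and U2af2 at 13.8 and 28.8. After rescaling none of the 110 was at least 2-fold higher.

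Genes for kinases that phosphorylate SR proteins included the only one past 2-fold in the lower direction. Srpk2, for an SR protein kinase, fell from 54.5 (SD 3.25) to 24.3 (SD 2.34), a change of -1.13. Clk4 had 8.16 and 4.76, a change of -0.67, and Clk3 20.9 and 18.9. Srpk1, abundant in testis, had 92.6 and 95.1. Clk1 had 3.04 and 3.39 and Clk2 4.82 and 6.24. The group of SR-related genes and kinases had a median of 0.31 over 13 genes, or -0.09 relative to all genes. The snRNP assembly group was similar, with a median of 0.33 over 9 genes. Lower among its tested genes were Gemin4, of the SMN complex, with 12.1 and 8.69, and Gemin6 with 7.43 and 6.85. So was Coil, for the Cajal body protein coilin, with 62.3 and 47.8. With Srpk2, Clk4, Gemin4 and Coil, Rbm4 completed the 5 largest decreases, at 8.03 and 6.49.

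The most abundant of these other genes were the poly(C)-binding genes Pcbp2, with 136 and 207, and Pcbp1, with 68.5 and 136, and Lsm4 with 80.8 and 147. Srpk1 and the exon junction gene Eif4a3, with 64.7 and 106, completed the 5. The germ-cell retrogene Rbmxl2, which encodes hnRNP G-T, had 40.6 and 53.7. Its X-linked parent Rbmx had 0.70 and 0.83. The neural and germ-cell regulator gene Ptbp2 had 41.5 and 56.4, above its paralogue Ptbp1 with 13.8 and 22.1.

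**Figure D3:**
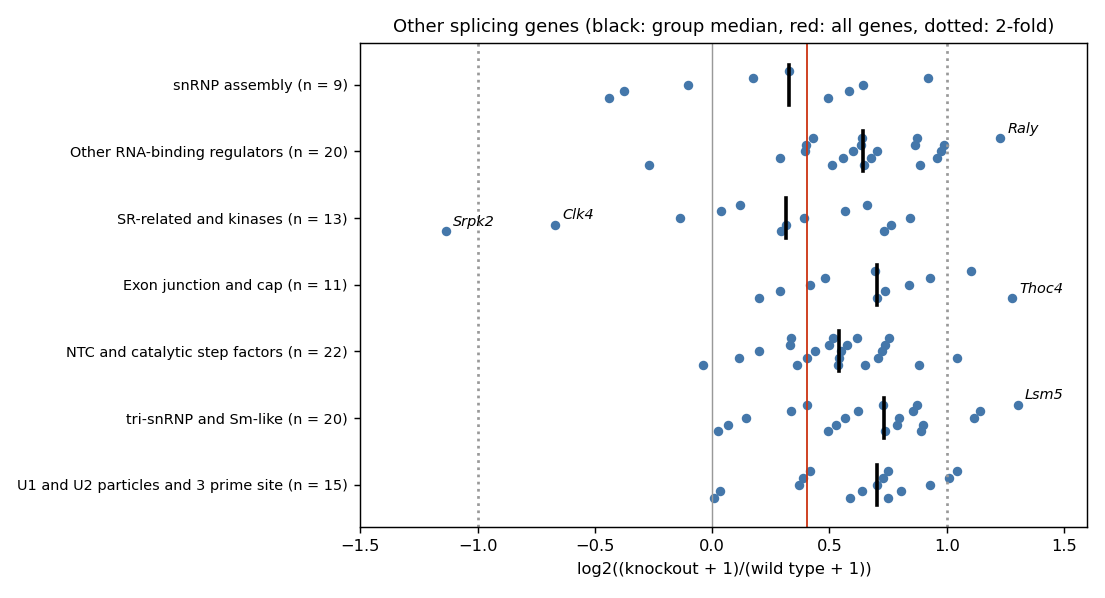
Log2 change of knockout against wild type (horizontal axis) for 110 other splicing genes in 7 groups, 1 point per gene, with black bars for group medians. The red line is the median of all genes, 0.40. Srpk2 lies at -1.13 and Clk4 at -0.67, to the left of the other genes.

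TAF7L signal at promoters was read from the authors' scores in wild-type testis, which have no stated definition, and 0 was taken as no assigned signal. A TAF7L promoter score was present for 62 of 75 tested members, 82.7% (exact 95% interval over genes 72.2 to 90.4), against 47.2% of all genes tested. For Pol II the count was 66 of 75, 88.0% (78.4 to 94.4), against 75.7%. Of the members with a Pol II score 62 of 66, 93.9%, also had TAF7L, against 62.1% of all such genes. The median TAF7L score of the members that had one was 89.9, against 71.8 for all genes, and the Pol II median was 707 against 366. These intervals cover counting over genes only, and names of the same gene repeat a score.

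By family, TAF7L promoter scores were counted in the row kept for each name. All 8 SF3 genes, 11 of 12 Snrp genes, 20 of 22 hnRNP names, 15 of 20 SR names and 8 of 13 PRP names had a TAF7L promoter score. The exact intervals of these family shares overlapped. Prpf39, Prpf40b, Prpf4b, Srsf10 and Srsf11 lacked a score in the kept row but had one in another row. The lower PRP and SR shares thus depend in part on the choice of row. The share of the PRP names, 61.5%, had an exact interval of 31.6 to 86.1, which includes the share of all genes. In the proximal class a TAF7L score was present for 42 of 75 members, 56.0%, against 28.0% of all genes. By family these were 20 of 22 hnRNP, 11 of 20 SR, 3 of 8 SF3, 4 of 12 Snrp and 4 of 13 PRP names. A proximal Pol II score was likewise present for 20 of 22 hnRNP names, and for 9 of 12 Snrp genes. Some of the proximal TAF7L scores were near 0, as for Hnrnpm (0.42), Snrpb (0.19) and Snrpe (1.82). In the distal class a TAF7L score was present for 45 of 75 members, against 49.8% of all genes. Pol II scores were present for 52 members in the proximal class, against 55.8%, and for 62 in the distal class, against 73.4%. With a minimum TAF7L promoter score of 50, 58 members had one, against 36.6% of all genes. What distances separate the classes is not stated.

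The highest member score for TAF7L, 361, and for Pol II, 3260, was that of Srsf7, shared by its second name Sfrs7. Its RNA signal was low, 3.70 and 6.02. Hnrnpm had TAF7L and Pol II promoter scores of 288 and 1230, Sf3b3 242 and 530, Hnrnph3 198 and 1150, and Hnrnpa2b1 180 and 2450. Hnrnpu had a Pol II score of 2190 with a TAF7L score of 127, Srsf2 1900 with 138, and Hnrnpab 1780 with 91.3. Srsf5 had 174 for TAF7L, and Srsf1 and Sf3b1 153 each. In the rows used, TAF7L scores reached 130 among Snrp genes, for Snrpb, and 88.3 among PRP genes, for Prpf38b, while other rows of Prpf39 and Prpf4b had 109 and 106. Snrpd2, the most abundant member, had 54.8 for TAF7L and 476 for Pol II.

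The 13 tested members without a TAF7L promoter score were of different kinds. For Hnrph1, Sfrs11, Srsf11, Srsf10, Prpf39, Prpf40b, Prpf4b and Sfrs14 the row used also lacked a Pol II promoter score. Of these, Srsf10, Srsf11, Prpf39, Prpf40b and Prpf4b had both scores in another row of the same name. The first of these, Srsf10, had 91.9 for TAF7L and 1400 for Pol II there. Snrpn had 0 in all 3 classes for both antibodies. Hnrnph2, Prpf31, Prpf6 and Sfrs16 had a Pol II promoter score, of 184, 221, 446 and 498, without TAF7L in that class in any of their rows. Prpf6 had a proximal TAF7L score of 145, whereas Hnrnph2 had 0 in all 3 TAF7L classes. Counted by RefSeq gene over all member names and rows, 64 of 71 genes had such a TAF7L score and 68 had one for Pol II. Rows under names outside the member rule, such as Clasrp at Sfrs16 and Sugp2 at Sfrs14, were not counted. Over all rows of a name, 54.2% of all genes tested had a TAF7L promoter score and 85.0% one for Pol II.

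**Figure D4:**
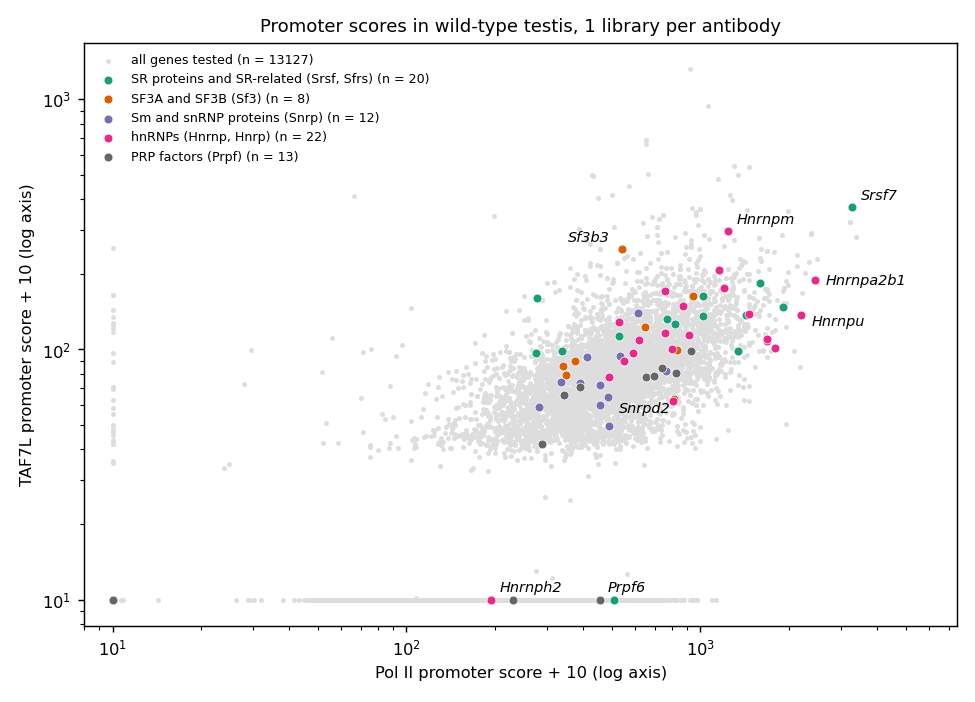
TAF7L promoter score against Pol II promoter score in wild-type testis, each with 10 added and on log axes, for all 13127 genes tested (grey) and the 75 tested members by family, from 1 library per antibody. Srsf7 lies at the top right with scores of 361 and 3260, while Hnrnph2 and Prpf6 lie on the bottom line with Pol II but a TAF7L score of 0.

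Members with and without a TAF7L promoter score had median changes of 0.63 (62 names) and 0.44 (13 names). In all genes these medians were 0.43 and 0.37. These splits, and the rho values below, go by the row kept for each name. Of the 13 names without a score there, only 8 had none in any row. Among these, Hnrph1 and Sfrs11 lie inside Hnrnph1 and Srsf11, which had a score. The 13 names are thus no clean set of genes without TAF7L. All 6 members past 2-fold had a TAF7L promoter score, as did 62 of the 75 members in all, and 320 of the 939 genes past 2-fold in the higher direction. Over the 75 members, Spearman's rho between TAF7L promoter score and change was 0.34, and over all 13127 genes it was 0.06. Every point shares the same 3 libraries and some names share a gene, so these values are descriptions. Between TAF7L and Pol II scores, rho was 0.62 over the 62 members with both and 0.59 over the 6169 such genes in all.

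Promoters are shown for 4 members chosen by their ChIP scores and for 2 Sm ring genes chosen by their RNA change. They come from RefSeq on build GRCm38.p6 and run from 250 bases before to 50 after a gene's start, which may differ from the start used in the mm9 tables. Capitals mark matches, on either strand, to the TATA box as TATAAA, to the CCAAT box, to the GC box core GGGCGG, to an ETS-type core spelled CCGGAA, or to the pyrimidine-rich motif CTTTCC. Adjacent matches can merge into 1 run of capitals. Srsf7 and Hnrnpm had the highest TAF7L promoter scores of the members:
Srsf7, chr17:80207256-80207555, - strand: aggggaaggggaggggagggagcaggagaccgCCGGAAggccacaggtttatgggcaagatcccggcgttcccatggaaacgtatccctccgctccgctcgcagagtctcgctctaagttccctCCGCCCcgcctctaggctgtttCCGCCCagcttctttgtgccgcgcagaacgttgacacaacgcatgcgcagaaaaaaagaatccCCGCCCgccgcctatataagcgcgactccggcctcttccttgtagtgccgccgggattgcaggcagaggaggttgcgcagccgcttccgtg
Hnrnpm, chr17:33685409-33685708, - strand: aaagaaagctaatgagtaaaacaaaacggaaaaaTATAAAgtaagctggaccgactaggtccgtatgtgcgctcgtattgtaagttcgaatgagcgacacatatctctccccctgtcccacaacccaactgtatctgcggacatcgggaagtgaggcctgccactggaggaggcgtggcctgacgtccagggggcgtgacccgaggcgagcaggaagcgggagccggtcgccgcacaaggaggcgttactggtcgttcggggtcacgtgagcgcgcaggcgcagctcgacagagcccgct
The ring genes Snrpe and Snrpd2 had the highest and the lowest change in the Sm ring:
Snrpe, chr1:133610231-133610530, - strand: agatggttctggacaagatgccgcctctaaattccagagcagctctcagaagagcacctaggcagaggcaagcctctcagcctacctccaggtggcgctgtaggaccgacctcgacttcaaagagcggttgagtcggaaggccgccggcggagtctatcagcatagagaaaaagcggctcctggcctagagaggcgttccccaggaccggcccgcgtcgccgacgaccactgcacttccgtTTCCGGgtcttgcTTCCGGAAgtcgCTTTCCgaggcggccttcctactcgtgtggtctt
Snrpd2, chr7:19149588-19149887, + strand: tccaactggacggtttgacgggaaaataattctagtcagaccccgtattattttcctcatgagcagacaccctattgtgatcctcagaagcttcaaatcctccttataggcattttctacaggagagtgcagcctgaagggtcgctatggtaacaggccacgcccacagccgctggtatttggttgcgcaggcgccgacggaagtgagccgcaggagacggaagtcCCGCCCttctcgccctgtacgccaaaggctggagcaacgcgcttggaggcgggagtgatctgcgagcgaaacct
Hnrnph2 and Prpf6 had Pol II but no TAF7L promoter score:
Hnrnph2, chrX:134600929-134601228, + strand: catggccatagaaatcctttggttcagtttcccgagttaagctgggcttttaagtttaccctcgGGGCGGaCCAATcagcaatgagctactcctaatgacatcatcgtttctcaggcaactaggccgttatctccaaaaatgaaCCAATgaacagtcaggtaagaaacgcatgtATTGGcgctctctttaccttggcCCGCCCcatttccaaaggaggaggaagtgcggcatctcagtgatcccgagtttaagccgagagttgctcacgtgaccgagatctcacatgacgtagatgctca
Prpf6, chr2:181601069-181601368, + strand: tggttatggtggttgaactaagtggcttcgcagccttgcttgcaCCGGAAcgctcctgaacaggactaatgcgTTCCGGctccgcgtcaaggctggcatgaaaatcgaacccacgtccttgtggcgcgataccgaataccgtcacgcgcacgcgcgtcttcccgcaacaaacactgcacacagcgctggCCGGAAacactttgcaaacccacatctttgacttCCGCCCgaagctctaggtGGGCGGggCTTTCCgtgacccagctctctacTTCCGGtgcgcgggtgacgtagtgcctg

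The CCGGAA core, an element of the kind bound by ETS factors, stood in a larger share of member promoters than of those of all tested genes. Of 71 RefSeq genes 62 matched, with 85 promoter entries, as some genes have several. CCGGAA stood in 41 of the 85, 48.2%, against 26.3% of 10774 entries of 8557 tested genes and 14.9% of all 32851 entries. For the GC box core the shares were 63.5% of member entries, 60.4% of entries of tested genes and 35.7% of all entries. They were 43.5%, 38.4% and 37.4% for the CCAAT box, 9.41%, 7.15% and 13.6% for the TATA box, and 28.2%, 26.00% and 26.6% for CTTTCC. The palindromes known for NRF1 and CREB stood in 1 and 2 member entries. The median number of CG pairs was 25, against 20 for tested genes. Among entries of genes with a TAF7L promoter score the medians were close, 25.5 for members and 24 for all tested genes. In the sequences above, CCGGAA or its reverse complement is present in Srsf7, Snrpe and Prpf6, and the exact letters TATAAA only in Hnrnpm. There they lie near the upstream end of the window, far from the gene's start. Variants of the TATA box were not searched, and Srsf7 holds an unmarked tatataa much closer to its start. Member entries with a TAF7L score at their gene held CCGGAA in 36 of 74 cases, 48.6%, and those without in 5 of 11. Across all tested genes these shares were 32.9% and 17.4%. A match describes letters in this window and is no evidence of a bound factor.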

How the data were processed

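RNA libraries of wild-type and Taf7l knockout testis and ChIP libraries of wild-type testis were analysed from 2 deposited tables. Per the submitters' processing notes, Bowtie, TopHat and Cufflinks were used with build mm9, with no versions. How IgG entered the scores is not stated. The authors deposited an expression signal (mean and standard deviation, unit not named), their log2 ratio and their ratio of standard deviation to mean. The deviation was read as one within a library. ChIP values are the authors' deposited score per transcript. The labels give 100 to 200 M reads per RNA library and no ChIP depth.

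Rows named only by an accession (7542) were left out, and 1 row per name was kept. Change was computed with pseudocount 1 over genes with a mean of at least 1. With 1 library per group, 2-fold and 1.5-fold differences were counted and no test was run. ChIP scores were joined by transcript identifier. Exact binomial intervals (95%) were computed with scipy 1.17.1, in Python 3.11. The change calculation was tested on simulated data. Alternatives were pseudocount, filter, scaling, row choice and score minimum. Members, lists and naming rule (in each family the most abundant members, the largest changes, the highest scores and those without TAF7L) were chosen with earlier results of these data known. The Snrpe and Snrpd2 promoters, and Rbmxl2, Rbmx, Ptbp1 and Ptbp2, were chosen after their values were seen. Names were matched to RefSeq (GRCm38.p6) symbols and synonyms on the same chromosome. The values of 1 member are not reported here, though it is included in the counts. Protein features were not analysed here.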

Additional observations from a re-analysis of the deposited data

How the results depend on the processing

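No paired analysis was possible because each group has 1 library. With the knockout signals divided so that the median gene had a change of 0, there were 0 members and 0 other splicing genes at least 2-fold higher, 2 other splicing genes at least 2-fold lower, and medians of 0.15 for members and 0.15 for other splicing genes. With a pseudocount of 0.1, 15 other splicing genes were at least 2-fold higher, as low genes are then less compressed. Over all genes, 939 were at least 2-fold higher, but 2125 with a pseudocount of 0.1, 2324 with none and 133 after rescaling, when 1626 instead of 930 were lower. A 1.5-fold line gave 42 higher members. The count of members at least 2-fold higher was between 4 and 7 with another pseudocount, filter, row choice or equal totals without Prm1, Prm2, Tnp1 and Tnp2. Its standing beside all genes was less stable. With a pseudocount of 0.1 or none it was 7 of 75, against 16.2% and 17.8% of all genes. Without a filter on low values it was 6 of 76, against 4.16%. No member was 2-fold lower in any alternative. The longest row of each name, 1 name per RefSeq gene and a limit on the spread within the library were added after seeing the data. The number of members with a TAF7L promoter score was 58 to 67 of 75 over the alternatives, against 36.6% to 54.2% of all genes. With 1 library per group, neither animal nor library variation could be estimated.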
